A study of Mus musculus with 20 samples.

Results

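The genes described here are 6 genes of extracellular purine signaling that T cells carry, *Entpd1*, *Nt5e*, *Adora2a*, *P2rx7*, *P2rx4* and *Ada*. They were chosen by gene symbol in the 2 deposited count tables, and all 6 of 6 were found among the 16740 genes listed for spleen and peripheral lymph nodes (pLNs) and among the 16784 genes listed for mesenteric lymph nodes (mLNs).

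Extracellular ATP is a danger signal released by damaged or activated cells. The ectoenzyme CD39, encoded by *Entpd1*, removes phosphates from ATP and ADP to leave AMP, and CD73, encoded by *Nt5e*, turns AMP into adenosine. Adenosine acts on T cells mainly through the cAMP-raising adenosine A2a receptor (*Adora2a*) and is cleared by adenosine deaminase (*Ada*), whereas ATP itself opens the ion channels P2X7 (*P2rx7*) and P2X4 (*P2rx4*). Regulatory T (Treg) cells of the mouse are known for carrying both CD39 and CD73, and they are sensitive to death through P2X7.

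The libraries hold RNA of sorted Treg cells, which express Foxp3, and of CD4+ T cells that do not (Foxp3- cells), from C57BL/6 mice, 14 weeks of age. WT mice carried the Foxp3Cre allele alone, in which a YFP-Cre fusion protein is made under control of the Foxp3 locus. DKO mice were Tet2/3fl/flFoxp3Cre, so that both *Tet2* and *Tet3*, which encode methylcytosine oxidases, were floxed and Cre was made in Foxp3-expressing cells. Each of the 4 groups of cell type and genotype had n = 2 libraries from pooled spleen and pLNs and n = 3 libraries from mLNs. Cells were sorted by YFP. The Foxp3- gate of DKO mice could therefore hold cells that had once expressed Foxp3 and lost it beside T cells that never had Cre, and the libraries do not separate these.

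Library totals were between 13525932 and 15253141 counts in spleen and pLNs and between 9998478 and 15449158 in mLNs. *Foxp3* checked the sort. In spleen and pLNs it was at 165 and 153 CPM (counts scaled to library size by TMM) in WT Treg cells and at 419 and 235 CPM in DKO Treg cells. This difference was not called (log2 fold change 1.04, adjusted p = 0.0607 by edgeR's quasi-likelihood test). The Foxp3- libraries there had between 0.251 and 0.741 CPM. Group means in mLNs were 312 and 305 CPM in WT and DKO Treg cells against 1.45 and 1.43 CPM in WT and DKO Foxp3- cells. The 6 T cell markers summed to between 4069 and 6461 CPM in every library of both tissues. Gene-level counts of *Tet2* and *Tet3* sum over all their exons and do not isolate the floxed ones, and neither gene was called between DKO and WT Treg cells (log2 fold changes of 0.01 and -0.30 in mLNs, 1.66 and 0.69 in spleen and pLNs). The deletion itself was therefore not checked by these counts.

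In the DKO mice 2 libraries of the Foxp3- gate stood apart from the others of their group. Replicate 1 of spleen and pLNs had 707 CPM summed over the 5 Treg markers *Foxp3*, *Il2ra*, *Ctla4*, *Ikzf2* and *Tnfrsf18*, against 226 CPM in replicate 2 and between 199 and 220 CPM in WT. Replicate 2 of mLNs had 348 CPM, against 177 and 249 CPM in the other DKO libraries and between 133 and 137 CPM in WT. *Foxp3* itself was lowest in these libraries, at 0.251 CPM from 4 counts and at 0.211 CPM from 3 counts. By the description in the study, the spleen of one of the DKO littermates that gave the spleen and pLN cells was clearly more enlarged than that of the other, and the labels do not say which replicate number that mouse has. The part of this difference in the DKO means of spleen and pLNs was not tested.

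The genes lie on 5 chromosomes. In GENCODE M1 on NCBIM37, the assembly also called mm9, *Entpd1* spans chr19:40686856-40816092 on the plus strand with 17 merged exons, and 2 pseudogenes (*Gm16027* and *Gm8783*) lie inside its span. *Nt5e* spans chr9:88222447-88266927 (+, 9 exons), *Adora2a* chr10:74779688-74797533 (+, 3 exons) and *Ada* chr2:163552320-163575975 (-, 12 exons). *P2rx7* (chr5:123093920-123141441, +, 16 exons) and *P2rx4* (chr5:123157593-123179747, +, 11 exons) are neighbours on the same strand with 16151 bases between them.

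Promoter sequences are shown for the members whose transcripts differed most, *Entpd1*, *Nt5e* and *P2rx7*, because the deleted enzymes act on methylated CpG sites. They are RefSeq windows on GRCm38.p6, a different build from the gene spans above, 300 bases long, lying mostly before a transcription start and reaching a short way past it. A total of 5 of the 6 genes had such a window, and *Adora2a* had none. Each is printed in transcript direction in lower case with every CpG in capitals. *Entpd1* had 2 start sites, at chr19:40612116-40612415 (+) and chr19:40659520-40659819 (+); the windows of *Nt5e* and *P2rx7* were chr9:88327359-88327658 (+) and chr5:122643677-122643976 (+).
Entpd1 first start: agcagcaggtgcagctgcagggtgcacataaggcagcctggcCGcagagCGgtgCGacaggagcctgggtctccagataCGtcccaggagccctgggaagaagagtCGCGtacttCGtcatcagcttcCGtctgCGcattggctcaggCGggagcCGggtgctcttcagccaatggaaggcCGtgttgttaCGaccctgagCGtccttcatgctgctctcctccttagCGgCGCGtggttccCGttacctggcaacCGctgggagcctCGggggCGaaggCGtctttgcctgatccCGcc
Entpd1 second start: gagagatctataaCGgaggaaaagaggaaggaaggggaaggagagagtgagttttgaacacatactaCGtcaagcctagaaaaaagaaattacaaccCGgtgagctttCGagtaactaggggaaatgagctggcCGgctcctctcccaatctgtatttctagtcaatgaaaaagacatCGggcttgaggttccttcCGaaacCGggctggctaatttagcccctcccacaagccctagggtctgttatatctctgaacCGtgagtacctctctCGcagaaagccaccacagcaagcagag
Nt5e: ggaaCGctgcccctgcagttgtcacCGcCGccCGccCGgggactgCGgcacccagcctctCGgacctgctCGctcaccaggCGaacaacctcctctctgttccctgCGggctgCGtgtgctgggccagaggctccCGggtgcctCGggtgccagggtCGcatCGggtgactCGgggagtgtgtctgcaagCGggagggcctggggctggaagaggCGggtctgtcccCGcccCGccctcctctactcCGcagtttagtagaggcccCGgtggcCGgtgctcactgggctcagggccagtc
P2rx7 first start: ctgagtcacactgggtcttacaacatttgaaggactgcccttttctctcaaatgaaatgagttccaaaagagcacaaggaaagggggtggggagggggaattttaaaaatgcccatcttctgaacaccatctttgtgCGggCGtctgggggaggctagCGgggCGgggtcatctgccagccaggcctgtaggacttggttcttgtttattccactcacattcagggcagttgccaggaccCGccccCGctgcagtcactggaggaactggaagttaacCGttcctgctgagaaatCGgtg
The first *Entpd1* window held 23 CpGs and the second 10. The *Nt5e* window held 23, and the first *P2rx7* window held 8. Over 32851 promoter windows of the same length the median was 7 CpGs, with quartiles of 3 and 20, so that the *Nt5e* and first *Entpd1* windows were CpG-rich and the first *P2rx7* window was near the median. A second *P2rx7* window held 4 CpGs, that of *P2rx4* held 18 and that of *Ada* held 20. The cAMP response element core TGACG, searched on both strands with overlapping matches counted, was found 1 time in each *Entpd1* window and 2 times in the *P2rx4* window, and 20.8% of all windows held it. The GC box GGGCGG was found 4 times in the *Nt5e* window, where some matches overlap, 2 times in each of the first *P2rx7* and *Ada* windows and 1 time in that of *P2rx4*, against 35.7% of all windows with at least 1. The forkhead core TGTTTA was found 1 time, in the first *P2rx7* window, against 13.4% of all windows. GGGCGG and TGACG contain a CpG and so overlap the capitals. DNA methylation of these windows was not analysed here.

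**Figure D1:**
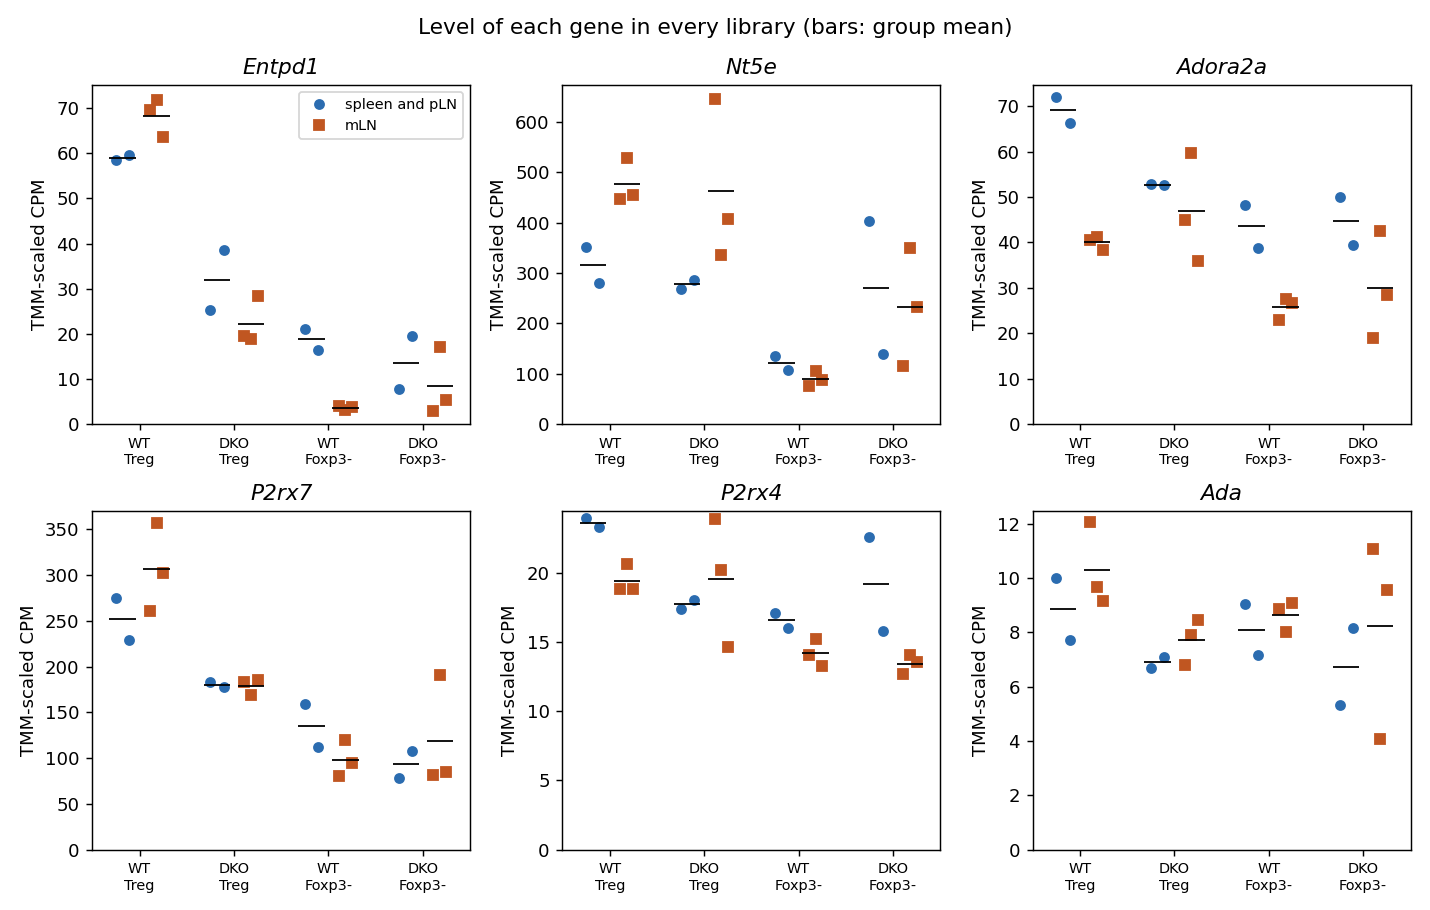
Level of each of the 6 genes in every library, as TMM-scaled CPM on a linear axis from 0, for WT and DKO Treg and Foxp3- cells of spleen and pLNs (circles) and mLNs (squares); bars are group means, and the tissues were scaled separately. *Entpd1* in mLNs sits between 63.6 and 71.7 CPM in WT Treg cells, between 18.8 and 28.3 CPM in DKO Treg cells and between 3.11 and 3.92 CPM in WT Foxp3- cells.

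Levels between genes were compared on the deposited TPM, which are per transcript length. *Nt5e* had the highest mean TPM of the 6 genes in each of the 8 groups, and *P2rx7* was second except in DKO Foxp3- cells of spleen and pLNs, where *Adora2a* (30.0 TPM) was above *P2rx7* (28.2 TPM). In WT Treg cells of mLNs the level of *Nt5e* was 243 ± 26.0 TPM (SD, n = 3), that of *P2rx7* 102 ± 17.6 and that of *Entpd1* 28.4 ± 1.46. *Adora2a* followed at 28.1 ± 0.912 TPM, *P2rx4* at 17.8 ± 1.16 and *Ada* at 11 ± 1.32. In WT Foxp3- cells of mLNs *Entpd1* was last of the 6 at 1.36 ± 0.135 TPM, below *Ada* at 8.51 ± 0.488 TPM. *Entpd1* was thus level with *Adora2a*, with overlapping libraries, and above *P2rx4* in WT Treg cells of mLNs, and its mean was below both in the DKO Treg cells (10.4 ± 2.45 TPM). TPM and CPM were not on the same scale between groups. The median gene differed by 0.33 on the log2 scale between DKO and WT Treg cells of spleen and pLNs, and by 0.17 in mLNs, on TPM, against -0.01 in both on TMM-scaled CPM. Changes below are on CPM, relative to the centre of all genes.

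The comparison of Treg with Foxp3- cells in WT mice asks which of these genes mark the Treg lineage before any deletion. All 6 genes had a higher mean in WT Treg cells in both tissues. Of the 6, 3 were called higher in mLNs (*Entpd1*, *Nt5e* and *P2rx7*) and 3 in spleen and pLNs (*Entpd1*, *P2rx7* and *Adora2a*), where a call needed an adjusted p of at most 0.05 over all genes tested and a fold of at least 1.5. Over all genes, 10.1% were called in either direction in mLNs and 4% in spleen and pLNs. The CPM of WT Treg and WT Foxp3- libraries did not overlap for 6 of the 6 genes in mLNs and 5 in spleen and pLNs. The same held for 41.5% and 55.3% of all genes tested. The median log2 fold change of the 6 genes was 1.14 in mLNs and 0.78 in spleen and pLNs, against 0.00 over all genes in both. As the libraries are bulk RNA, fewer cells carrying a transcript and less of it per cell cannot be told apart.

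In mLNs, *Entpd1*, the gene of the ATP- and ADP-degrading enzyme, had 69.5, 71.7 and 63.6 CPM in WT Treg cells and 3.92, 3.11 and 3.69 CPM in WT Foxp3- cells. The groups lay far apart. The log2 fold change was 4.26 (standard error 0.47, adjusted p = 7.33e-05 by edgeR's quasi-likelihood test), or 19.2-fold. In the spleen and pLN libraries *Entpd1* was at 58.4 and 59.7 CPM in WT Treg cells and at 21.1 and 16.5 CPM in WT Foxp3- cells, and differed by 1.65 on the log2 scale (standard error 0.34, adjusted p = 0.0152). The spleen and pLN call was lost when any 1 of the 4 WT libraries was left out (adjusted p between 0.132 and 0.287). The difference in the size of this contrast between tissues was not tested, because the tables were normalized separately.

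*Nt5e*, the gene of the adenosine-forming enzyme, had 447, 529 and 455 CPM in WT Treg cells of mLNs and 76.5, 106 and 88.0 CPM in WT Foxp3- cells. These did not overlap, and the log2 fold change was 2.40 (standard error 0.33, adjusted p = 0.000341). Spleen and pLN values were 352 and 281 CPM against 136 and 108 CPM, again without overlap, and the difference of 1.37 on the log2 scale (standard error 0.36) did not pass (adjusted p = 0.0574). It passed with DESeq2 on 4 or 2 groups and with edgeR on 2 groups (adjusted p between 2.85e-43 and 0.0159). The value lay between 1.20 and 1.55 with 1 library left out and was 1.36 without DKO replicate 1 in both cell types. These fits left 1 library in a group.

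*P2rx7*, the ATP-gated channel that can open a large pore, was at 261, 356 and 302 CPM in WT Treg cells of mLNs and at 80.3, 119 and 95.0 CPM in WT Foxp3- cells (log2 fold change 1.64, standard error 0.27, adjusted p = 0.00123). Its values in spleen and pLNs were 275 and 229 CPM against 159 and 112 CPM (log2 fold change 0.90, standard error 0.21, adjusted p = 0.0309), and with the replicate block within genotype, which pairs the Treg and Foxp3- libraries of one number, the call was lost (adjusted p = 0.0580). Its neighbour *P2rx4* differed less, with group means of 19.4 and 14.2 CPM in mLNs (log2 fold change 0.45, standard error 0.16, adjusted p = 0.0696) and 23.6 and 16.5 CPM in spleen and pLNs (log2 fold change 0.51, adjusted p = 0.260). Neither tissue's *P2rx4* value passed. Its libraries did not overlap, as was so for a large share of all genes, given above.

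*Adora2a*, the receptor for adenosine, was at 72.0 and 66.3 CPM in WT Treg cells of spleen and pLNs and at 48.2 and 38.8 CPM in WT Foxp3- cells (log2 fold change 0.67, standard error 0.17, adjusted p = 0.0470). Leaving out any 1 of the WT libraries or of the DKO Treg libraries lost that call, and so did 5 other settings, among them DESeq2's size factors (adjusted p between 0.0516 and 0.624 over all of these). The replicate block within genotype was among them (adjusted p = 0.0744). In mLNs the libraries also did not overlap, at 40.6, 41.3 and 38.3 CPM against 23.0, 27.5 and 26.7 CPM, and the difference of 0.64 on the log2 scale (standard error 0.24) did not pass (adjusted p = 0.0941). With that block *Adora2a* passed in mLNs (log2 fold change 0.64, adjusted p = 0.0228), as it did in 6 other alternatives, among them both tools on 2 groups and leaving out DKO Foxp3- replicate 1 or 2 (adjusted p between 1.1e-09 and 0.0417). The spleen and pLN calls of *P2rx7* were also lost without any 1 of the WT or DKO Treg libraries (adjusted p between 0.0673 and 0.521). *Ada*, the adenosine-degrading enzyme, had means of 10.3 and 8.65 CPM in mLNs and 8.86 and 8.10 CPM in spleen and pLNs (adjusted p = 0.607 and 0.951).

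**Figure D2:**
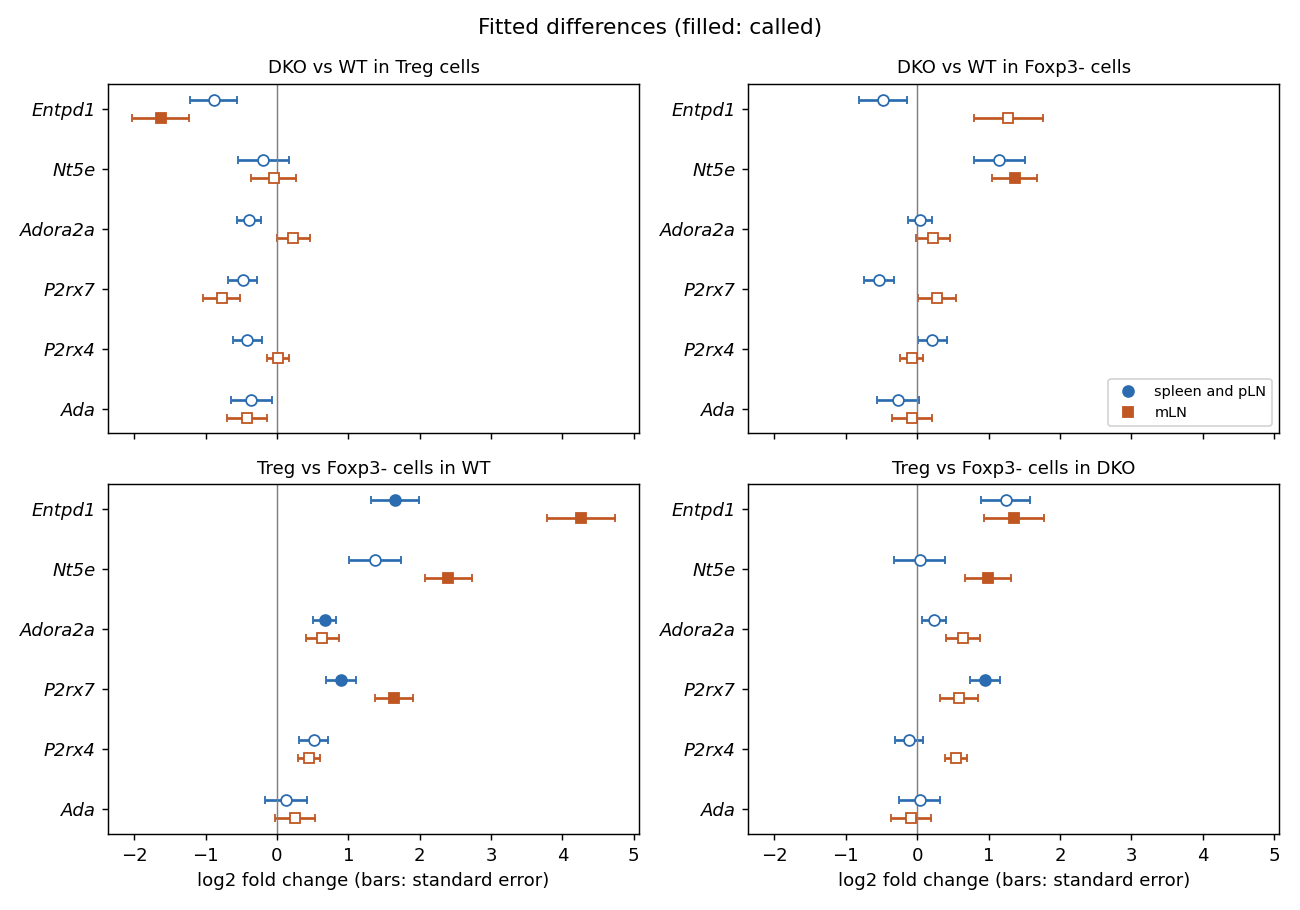
Log2 fold change of each gene in 4 comparisons, with standard errors as bars, for spleen and pLNs (circles) and mLNs (squares); filled symbols passed the adjusted p and the fold. The largest value is *Entpd1* in WT Treg against Foxp3- cells of mLNs, 4.26, and the single filled symbol among the comparisons of DKO with WT Treg cells is *Entpd1* in mLNs at -1.63.

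The comparison of DKO with WT Treg cells asks which of these genes changed in Treg cells with floxed *Tet2* and *Tet3*. In mLNs 1 of the 6 genes was called, *Entpd1*, and it fell. Over all genes 11.9% were called in this comparison. The median log2 fold change of the 6 was -0.23, against 0.00 over all genes. By edgeR none of the 6 was called in spleen and pLNs, and 1.74% of all genes were; 3 of the 6, and 20.4% of all genes, had an unadjusted p under 0.05 there, DESeq2 called 0 over 4 groups, and *Entpd1* was called when edgeR or DESeq2 was fitted to the Treg libraries alone.

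The DKO Treg libraries of mLNs had *Entpd1* at 19.4, 18.8 and 28.3 CPM, below each of the WT Treg libraries given above. The log2 fold change was -1.63 (standard error 0.40, adjusted p = 0.0129), or 3.09-fold lower, and it passed under each of the 22 alternatives computed, with values between -1.84 and -1.39 and adjusted p between 2.62e-20 and 0.0494. Spleen and pLN levels of *Entpd1* were 25.4 and 38.5 CPM in DKO Treg cells, below both WT libraries (log2 fold change -0.89, standard error 0.33, adjusted p = 0.154). With 1 library left out the spleen and pLN value lay between -1.22 and -0.62, and without DKO replicate 1 in both cell types it was -0.61. Such fits leave 1 library in a group, and the spread then comes from the other groups, so they do not test the change.

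*P2rx7* was at 183, 169 and 185 CPM in DKO Treg cells of mLNs, below the lowest WT Treg library at 261 CPM. The difference, -0.78 on the log2 scale (standard error 0.26), did not pass (adjusted p = 0.0562), and over 22 alternatives the value lay between -0.88 and -0.58, with a call in 8. Its spleen and pLN values were 183 and 177 CPM, again below both WT libraries (log2 fold change -0.48, adjusted p = 0.212). Its neighbour *P2rx4* was at 23.8, 20.2 and 14.6 CPM in DKO and 18.8, 20.6 and 18.8 CPM in WT Treg cells of mLNs (log2 fold change 0.01, standard error 0.15, adjusted p = 1). Its spleen and pLN values were 17.4 and 18.0 CPM in DKO and 23.9 and 23.3 CPM in WT Treg cells, without overlap on CPM (log2 fold change -0.41, adjusted p = 0.272).

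*Nt5e* was at 645, 336 and 407 CPM in DKO Treg cells of mLNs, on both sides of the WT Treg libraries (log2 fold change -0.04, standard error 0.31, adjusted p = 0.980), and at 269 and 287 CPM in DKO Treg cells of spleen and pLNs (log2 fold change -0.19, adjusted p = 0.805). *Adora2a* was at 45.0, 59.7 and 35.8 CPM in DKO Treg cells of mLNs (log2 fold change 0.23, adjusted p = 0.523) and at 52.8 and 52.6 CPM in spleen and pLNs (log2 fold change -0.39, adjusted p = 0.210). *Ada* had log2 fold changes of -0.42 and -0.36 (adjusted p = 0.334 and 0.535). On CPM, the spleen and pLN mean of every one of the 6 genes was lower in DKO than in WT Treg cells, and 5 of the 6 were lower on TPM, where *Nt5e* was higher. On CPM the DKO and WT Treg libraries of 5 of the 6 genes did not overlap there, and neither did those of 54.2% of all genes tested. On TPM this held for 1 of the 6, *Entpd1*, and for 57.1% of all genes tested.

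Markers of other cells moved with genotype in the Treg libraries. The 6 B cell markers summed to between 27.4 and 36.4 CPM in WT Treg cells of mLNs, with *Pax5* at 0, and to between 27.8 and 73.5 CPM in DKO Treg cells. *Cd79b* made up most of the WT sum, and the sum without it, taken after its values were seen, was between 1.08 and 2.15 CPM in WT and between 11.4 and 68.0 CPM in DKO Treg cells. *Cd79b* itself fell in DKO Treg cells, from 30.2 to 9.62 CPM on average in mLNs (log2 fold change -1.64, adjusted p = 0.0376) and from 27.5 to 6.46 CPM in spleen and pLNs (log2 fold change -2.09, adjusted p = 0.00246). The 7 measured myeloid markers summed to between 2.85 and 4.77 CPM in WT, with *Cd14* at 0, and to between 14.3 and 54.5 CPM in DKO Treg cells. The 5 CD8 and NK markers summed to between 25.6 and 31.6 CPM in WT and between 77.8 and 166 CPM in DKO Treg cells. Among the DKO Treg libraries of mLNs, replicate 3 had the highest B cell and myeloid sums and the highest *Entpd1* (28.3 CPM). The spleen and pLN B cell sum was lower in DKO Treg cells, between 11.1 and 16.6 CPM against between 28.2 and 30.5 CPM in WT. Without *Cd79b* it was higher in DKO, between 3.41 and 11.3 CPM against between 1.69 and 2.02 CPM in WT. The myeloid sum there was between 12.4 and 33.7 CPM in DKO against 2.84 and 4.94 CPM in WT. The CD8 and NK sum was between 101 and 131 CPM against 26.0 and 29.7 CPM. The part of these cells in the members' levels was not tested. In mLNs the 5 Treg markers summed to between 1480 and 1679 CPM in DKO and between 1878 and 2040 CPM in WT Treg cells. Of the 5, 1 was called between them, *Il2ra*, which fell from 761 to 351 CPM on average. In spleen and pLNs the Treg marker sums of WT and DKO Treg cells overlapped.

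Ratios within a library do not depend on the scaling. The *Nt5e* to *Entpd1* ratio on TPM was 7.86, 9.03 and 8.74 in WT Treg cells of mLNs and 40.7, 21.9 and 17.6 in DKO Treg cells, which did not overlap. It was 23.9, 41.8 and 29.2 in WT Foxp3- cells, and 1 of the 3 DKO Treg values lay in that range and the other 2 below it. The *P2rx7* to *P2rx4* ratio was 5.01, 6.25 and 5.81 in WT Treg cells, 2.78, 3.02 and 4.58 in DKO Treg cells and 2.07, 2.84 and 2.59 in WT Foxp3- cells. DKO and WT Treg cells did not overlap in either ratio, with an exact two-sided permutation p = 0.1 in each, the smallest that 3 against 3 libraries allow, and an adjusted p = 0.2 over 8 comparisons. The spleen and pLN values of the *P2rx7* to *P2rx4* ratio were 4.24 and 3.62 in WT and 3.89 and 3.64 in DKO Treg cells, which overlapped, and the *Nt5e* to *Entpd1* ratio was 7.07 and 5.52 against 12.4 and 8.73.

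**Figure D3:**
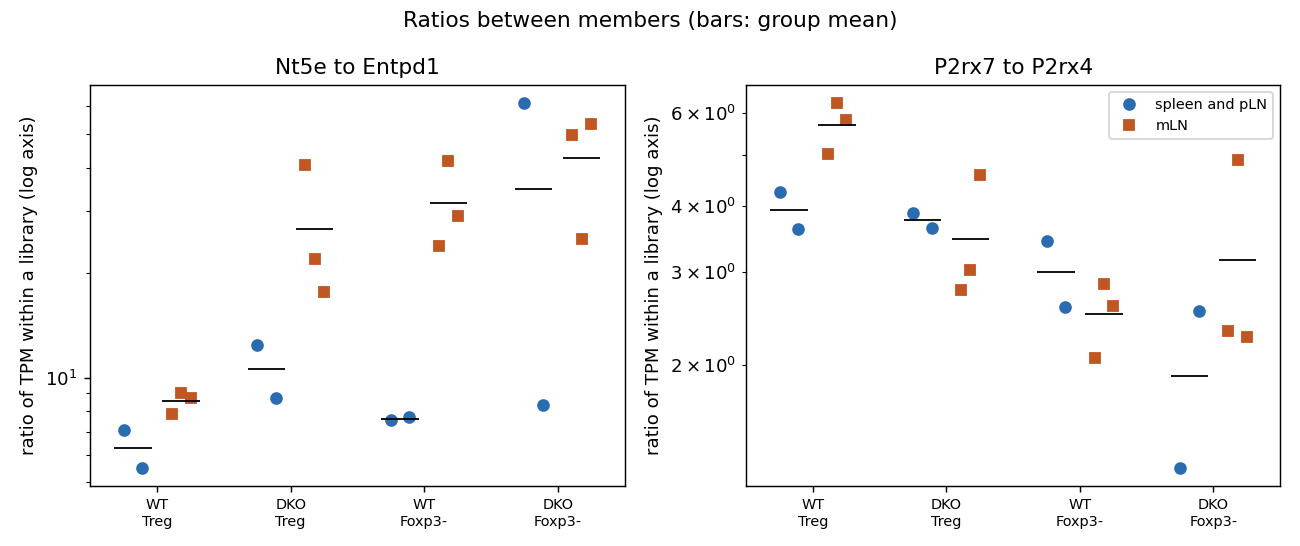
Ratio of the TPM of *Nt5e* to *Entpd1* and of *P2rx7* to *P2rx4* within each library, on a log axis, for the 4 groups of both tissues; bars are group means. In mLNs the *Nt5e* to *Entpd1* ratio sits between 7.86 and 9.03 in WT Treg cells and between 17.6 and 40.7 in DKO Treg cells.

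The comparison of DKO with WT Foxp3- cells asks about CD4+ T cells outside the Treg gate of the same mice. Among the 6 genes, 1 was called in mLNs, *Nt5e*, and it rose; 3.43% of all genes were called. None of the 6 was called in spleen and pLNs by edgeR, where 0.819% of all genes were. There 2 of them, and 12.9% of all genes, had an unadjusted p under 0.05, and no alternative that kept every library, DESeq2 included, called one. The members' median log2 fold change was 0.25 in mLNs and -0.11 in spleen and pLNs, against 0.00 over all genes in both.

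In DKO Foxp3- cells of mLNs *Nt5e* was at 115, 349.8 and 232 CPM, each above the highest WT Foxp3- library at 106 CPM, but spread over a wide range. The log2 fold change was 1.36 (standard error 0.32, adjusted p = 0.0345). The call was lost without any 1 of the 3 WT Foxp3- libraries, the 3 WT Treg libraries or DKO Foxp3- replicates 2 and 3 (adjusted p between 0.0529 and 0.150). With every library kept, it was also lost with a robust prior, a replicate block over all groups, limma on TPM and edgeR on 2 groups (adjusted p between 0.0538 and 0.166). The value over all alternatives lay between 0.93 and 1.69. Spleen and pLN levels of *Nt5e* were 404 and 138 CPM in DKO and 136 and 108 CPM in WT Foxp3- cells (log2 fold change 1.15, standard error 0.36, adjusted p = 0.165). Replicate 1 set that value. Without it the log2 fold change was 0.18, and without replicate 2 it was 1.73, each from 1 DKO Foxp3- library.

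*Entpd1* was at 2.84, 17.2 and 5.30 CPM in DKO Foxp3- cells of mLNs. Replicate 2 lay apart, and replicate 1 lay below all WT libraries. The difference, 1.28 on the log2 scale (standard error 0.48), did not pass (adjusted p = 0.167), was 0.21 without replicate 2 (adjusted p = 0.840), and was 1.69 and called without replicate 1 (adjusted p = 0.00952). Its spleen and pLN values were 7.72 and 19.4 CPM (log2 fold change -0.48, adjusted p = 0.636), so the library with the highest *Nt5e* had the lowest *Entpd1*. Without replicate 1 the spleen and pLN value was 0.042, and without replicate 2 it was -1.28, each from 1 DKO Foxp3- library. The *Nt5e* to *Entpd1* ratio there was 61.3 in DKO replicate 1 and 8.35 in DKO replicate 2, against 7.54 and 7.70 in WT.

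The *P2rx7* level was 81.6, 190.5 and 84.7 CPM in DKO Foxp3- cells of mLNs (log2 fold change 0.28, adjusted p = 0.608), with replicate 2 alone above the WT range. The spleen and pLN values were 78.2 and 108 CPM (log2 fold change -0.54, adjusted p = 0.281), below both WT libraries. Without DKO Foxp3- replicate 2 the difference was -0.79, and it was -0.32 without replicate 1 and -0.26 without WT Foxp3- replicate 1. Each of these fits left 1 library in a group. *Adora2a* (19.0, 42.5 and 28.4 CPM) and *Ada* (11.1, 4.08 and 9.55 CPM) also took their most extreme mLN value in replicate 2, high for *Adora2a* and low for *Ada*, with adjusted p = 0.636 and 0.955. Without replicate 2 the mLN log2 fold change was -0.23 for *P2rx7*, -0.11 for *Adora2a* and 0.27 for *Ada*, none of them called. *P2rx4* stayed between 12.7 and 14.1 CPM in all 3 libraries (adjusted p = 0.848).

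Markers moved with these libraries. *Ctla4* was at 44.0, 148 and 101 CPM in the DKO Foxp3- libraries of mLNs against 23.2 to 29.0 CPM in WT, and *Ikzf2* at 36.6, 64.9 and 48.8 CPM against 22.5 to 29.0 CPM, in the order of *Nt5e*. In spleen and pLNs replicate 1 had *Ctla4* at 344 CPM and *Ikzf2* at 178 CPM, and replicate 2 had 50.4 and 45.4 CPM. *Il2ra* did not follow in mLNs, at 22.3, 12.3 and 25 CPM, lowest in replicate 2. Replicate 2 of mLNs also had the highest sums of the other cells' markers, with B cell markers at 16.5 CPM (3.28 and 5.83 CPM in the other DKO libraries, 2.69 to 2.84 CPM in WT), myeloid markers at 26.7 CPM (WT 7.22 to 9.28 CPM) and CD8 and NK markers at 146 CPM (WT 54.7 to 65.1 CPM). Replicate 1 of spleen and pLNs had B cell markers at 36.3 CPM, against 7.56 CPM in replicate 2 and 4.18 CPM in each WT library. Its myeloid markers summed to 30.1 CPM, against 22.0 CPM in replicate 2 and 8.66 to 9.65 CPM in WT, and its CD8 and NK markers to 225 CPM, against 138 CPM and 90.8 to 144 CPM. Without *Cd79b* the B cell sum was at most 5.98 CPM in DKO Foxp3- cells of mLNs and between 4.08 and 32.4 CPM in those of spleen and pLNs. The part of any of these cells in the *Nt5e* and *Entpd1* levels was not tested.

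**Figure D4:**
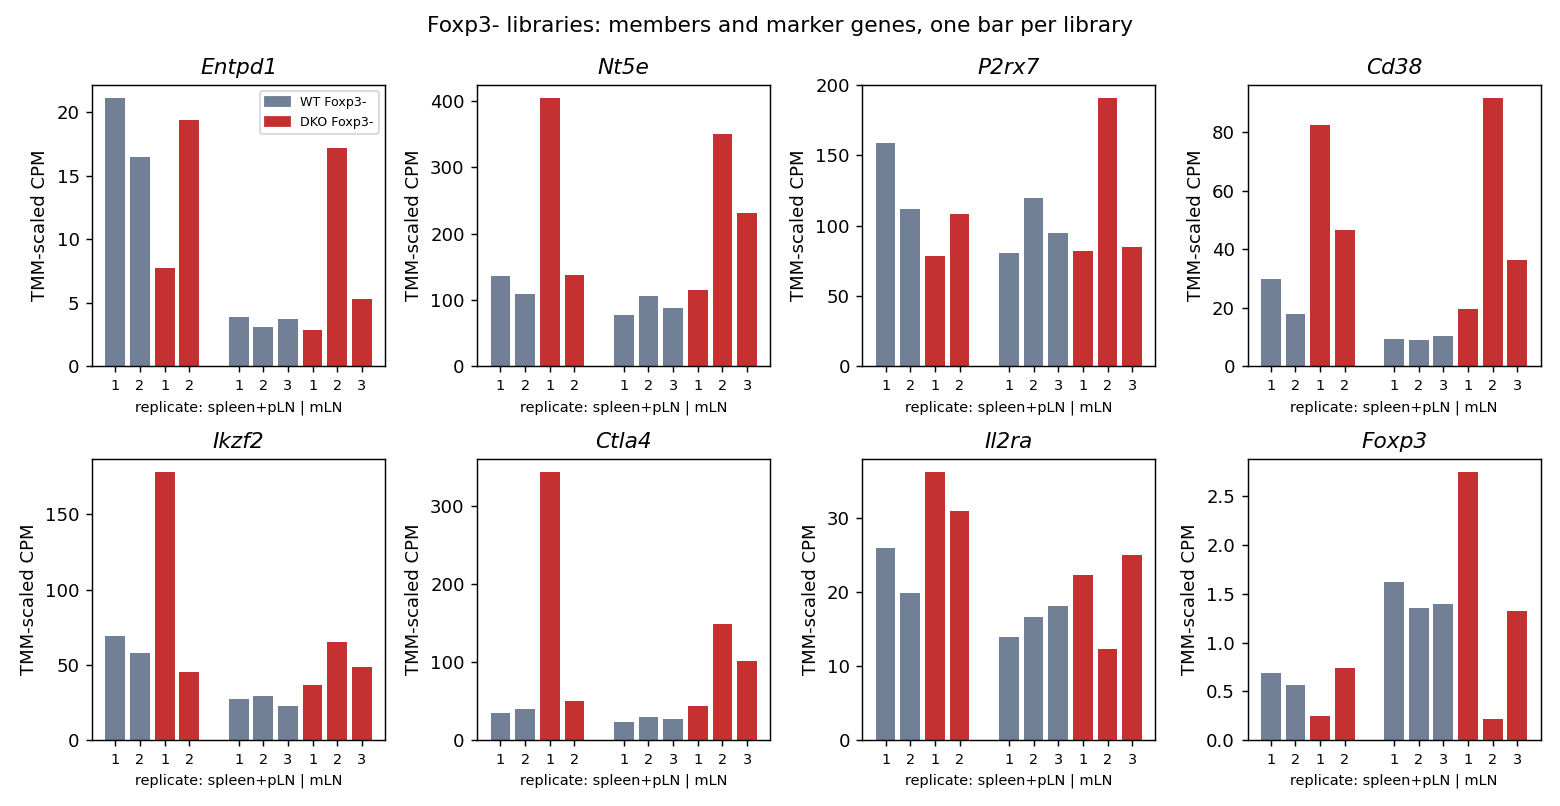
Level of 3 members, *Cd38* and 4 Treg marker genes in each Foxp3- library, as TMM-scaled CPM on linear axes from 0, with WT in grey and DKO in red and the replicate number under each bar. DKO replicate 1 of spleen and pLNs (404 CPM) and DKO replicate 2 of mLNs (349.8 CPM) have the highest *Nt5e*, and the lowest *Foxp3* (0.251 and 0.211 CPM).

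Within DKO mice, Treg and Foxp3- cells were compared to see what remained of the lineage difference. In mLNs 2 of the 6 genes were called higher in Treg cells, *Entpd1* and *Nt5e*, and 11.2% of all genes were called. In spleen and pLNs 1 was called, *P2rx7*, and 3.77% of all genes were. The members' median log2 fold change was 0.61 in mLNs, against 0.01 over all genes, and 0.14 in spleen and pLNs, against 0.00.

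*Entpd1* in mLNs had means of 22.1 ± 5.32 CPM (SD, n = 3) in DKO Treg and 8.44 ± 7.66 CPM in DKO Foxp3- cells, and the lowest Treg library (18.8 CPM) was just above the highest Foxp3- library (17.2 CPM). The log2 fold change was 1.36 (standard error 0.42, adjusted p = 0.0413). The call held without DKO Foxp3- replicate 2, where the value was 2.40, and was lost without any other 1 library (adjusted p between 0.0578 and 0.137). *Nt5e* had means of 462.5 ± 162 and 232 ± 117 CPM, with overlapping libraries (log2 fold change 0.99, standard error 0.32, adjusted p = 0.0456). Its call was lost without any 1 of 10 libraries, all but DKO Foxp3- replicate 2 and DKO Treg replicate 2, and with the replicate block within genotype (adjusted p = 0.0860). Under that block *Adora2a* passed instead (log2 fold change 0.68, adjusted p = 0.0155; without the block 0.64, adjusted p = 0.0789).

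*P2rx4* had an adjusted p = 0.0284 in DKO mLNs with a log2 fold change of 0.54, below the fold asked for, and was called without DKO Treg replicate 3 (adjusted p = 0.00293). *P2rx7* had means of 179 ± 8.85 and 119 ± 62.0 CPM (log2 fold change 0.59, adjusted p = 0.154), and without DKO Foxp3- replicate 2 it was called at 7.75e-05, adjusted, as were *Entpd1*, *Nt5e* and *Adora2a*. In spleen and pLNs *P2rx7* was at 183 and 177 CPM in DKO Treg cells against 78.2 and 108 CPM in DKO Foxp3- cells (log2 fold change 0.95, standard error 0.21, adjusted p = 0.0248), a call lost without any 1 of the Treg libraries (adjusted p between 0.0770 and 0.179) and with the replicate block within genotype (adjusted p = 0.0510). *Entpd1* there had a log2 fold change of 1.24 (adjusted p = 0.0701). It was called by DESeq2 on 4 groups (adjusted p = 0.0408). The value was 2.04 without DKO Foxp3- replicate 2, 0.71 without DKO Foxp3- replicate 1 and 0.98 without DKO replicate 1 in both cell types. Each of these fits left 1 DKO Foxp3- library. *Nt5e* differed by 0.03 on that scale (adjusted p = 1). Its difference was 1.005 without DKO Foxp3- replicate 1, 1.04 without DKO replicate 1 in both cell types and -0.54 without DKO Foxp3- replicate 2. These fits also left 1 DKO Foxp3- library.

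Whether the effect of genotype differed between Treg and Foxp3- cells was tested as an interaction. By edgeR 0 of the 6 genes passed in either tissue, with an unadjusted p under 0.05 for 3 of them in mLNs, where 10.9% of all genes had one, and 2 in spleen and pLNs, where 5.53% had one. Over all genes 0.28% passed the interaction test in mLNs and 0.00611% in spleen and pLNs. In mLNs the interaction was -2.90 for *Entpd1* (standard error 0.62, adjusted p = 0.0731), -1.41 for *Nt5e* (standard error 0.45, adjusted p = 0.226) and -1.05 for *P2rx7* (standard error 0.37, adjusted p = 0.297). These are the effect in Treg cells minus that in Foxp3- cells. That of *Entpd1* passed by DESeq2 (adjusted p = 0.00141) and without DKO Foxp3- replicate 1 or 2 or DKO replicate 2 in both cell types (adjusted p between 0.00372 and 0.00816), with values between -3.34 and -1.71 over all alternatives. That of *Nt5e* was -1.02 without DKO Foxp3- replicate 2, -0.79 without DKO replicate 2 in both cell types, and -1.76 and called without DKO Foxp3- replicate 1 (adjusted p = 0.0194). That of *P2rx7* was -0.56 without DKO Foxp3- replicate 2 and -0.48 without DKO replicate 2 in both cell types, neither called. In spleen and pLNs the interactions ranged from -1.34 for *Nt5e* to 0.06 for *P2rx7*, with adjusted p between 0.902 and 1. That of *Nt5e* was -0.37 without DKO Foxp3- replicate 1 and -1.92 without replicate 2, each from 1 DKO Foxp3- library. That of *Entpd1* was -0.41. It lay between -0.93 and 0.39 with 1 library left out and was -0.66 without DKO replicate 1 in both cell types. These fits left 1 library in a group.

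The order of the 4 groups by mean CPM in mLNs was, for *Entpd1*, WT Treg, DKO Treg, DKO Foxp3- and WT Foxp3- cells, and only the last pair overlapped. For *Nt5e* the order was the same, with WT and DKO Treg cells overlapping, and DKO Treg and DKO Foxp3- cells overlapping. For *P2rx7* the order was again the same, with WT Treg cells apart from the rest and each later pair of neighbours overlapping. For *Adora2a* DKO Treg cells came first, and all neighbours overlapped. In spleen and pLNs *Entpd1* and *P2rx7* ran from WT Treg over DKO Treg and WT Foxp3- to DKO Foxp3- cells, with overlap only between the Foxp3- groups of *Entpd1*.

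Other genes of the pathway were counted from lists of ectonucleotidases, purine receptors, transporters, purine enzymes, ATP release channels, ADP-ribosyltransferases, P2X7 effectors and cAMP signaling genes. Beside the 6, 88 of these genes were tested in mLNs and 90 in spleen and pLNs. Between DKO and WT Treg cells of mLNs 5 rose and 6 fell, with a median log2 fold change of 0.10, and in spleen and pLNs none rose and 3 fell, where 11.9% and 1.74% of all genes were called. Between DKO and WT Foxp3- cells 3 rose and none fell in mLNs, and 2 rose and 1 fell in spleen and pLNs (3.43% and 0.819% of all genes). Between WT Treg and Foxp3- cells 12 were higher and 5 lower in Treg cells of mLNs, and 5 were higher and 3 lower in spleen and pLNs (10.1% and 4% of all genes). In DKO mice the numbers were 7 and 5 in mLNs and 5 and 3 in spleen and pLNs (11.2% and 3.77% of all genes). The 11 of 88 called between DKO and WT Treg cells of mLNs are close to the share over all genes. None of them passed the interaction test in either tissue.

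Of the 10 ectonucleotidases tested in mLNs, members included, 1 rose and 2 fell between DKO and WT Treg cells (median log2 fold change 0.28, against 0.00 over all genes). *Enpp1*, which splits ATP to AMP and pyrophosphate, fell with *Entpd1*, from 41.0 ± 3.59 to 17.5 ± 5.23 CPM in mLNs (log2 fold change -1.23, adjusted p = 0.0378) and from 25.4 ± 1.32 to 12.3 ± 1.96 CPM in spleen and pLNs (log2 fold change -1.05, adjusted p = 0.0221). *Enpp2*, which encodes autotaxin and makes lysophosphatidic acid, rose from 0.586 ± 0.223 to 3.10 ± 1.56 CPM in mLNs (adjusted p = 0.0319). *Cd38*, which consumes NAD, rose in DKO Foxp3- cells, from 9.63 ± 0.750 to 49.1 ± 37.6 CPM in mLNs (19.5, 91.5 and 36.3 CPM by library; log2 fold change 2.36, adjusted p = 0.0104) and from 23.7 ± 8.38 to 64.5 ± 25.5 CPM in spleen and pLNs (log2 fold change 1.44, adjusted p = 0.0423). *Entpd4*, an intracellular relative of *Entpd1*, rose in DKO Treg cells of mLNs from 22.1 ± 0.153 to 47.9 ± 5.11 CPM (log2 fold change 1.12, adjusted p = 0.000181) and in DKO Foxp3- cells from 23.8 ± 1.64 to 45.0 ± 8.71 CPM (log2 fold change 0.92, adjusted p = 0.00454).

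Among adenosine transporters and purine enzymes, *Slc29a4* rose in DKO Treg cells of mLNs from 0.871 ± 0.455 to 2.45 ± 0.256 CPM (adjusted p = 0.0199). *Xdh*, which oxidizes hypoxanthine and xanthine, fell in DKO Treg cells of spleen and pLNs from 17.8 ± 2.16 to 5.98 ± 0.534 CPM (adjusted p = 0.00807). *Ampd1*, the AMP deaminase of muscle, was lower in Treg than in Foxp3- cells of both genotypes and tissues, at 2.65 ± 0.361 against 15.4 ± 0.986 CPM in WT mLNs (adjusted p = 0.00854). *Gda* was called higher in DKO Treg than Foxp3- cells of spleen and pLNs, from 3.66 and 0.751 CPM against 1 count in each Foxp3- library.

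Of the receptors, *P2ry1*, the ADP receptor of platelets, was lower in WT Treg cells of spleen and pLNs (0.439 ± 0.0308 against 4.09 ± 0.444 CPM, adjusted p = 0.00657). *P2rx3*, a channel of sensory neurons, was called in DKO Foxp3- cells of spleen and pLNs (adjusted p = 0.0462). It had 17.3 and 0.963 CPM in the DKO libraries and no reads in either WT library, at least 37.8-fold higher on the mean and at least 3.99-fold in replicate 2, against a floor of 3 counts in a WT library that covers counting error only. In mLNs 2 of 3 DKO Foxp3- libraries had no *P2rx3* read.

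The ADP-ribosyltransferases include *Art2b*, whose product modifies P2X7 in the presence of NAD. *Art2b* was at 127, 128 and 111 CPM in WT Treg cells of mLNs and at 73.3, 90.7 and 74.3 CPM in WT Foxp3- cells (log2 fold change 0.62, adjusted p = 0.0329), and at 112, 71.3 and 68.5 CPM in DKO Treg cells (log2 fold change against WT -0.54, adjusted p = 0.0505). *Art2b* has a near-identical copy, listed as *Art2a-ps*, and the counting could split reads between them. *Art3* fell in DKO Treg cells of both tissues, from 7.23 ± 1.07 to 0.753 ± 0.0936 CPM in spleen and pLNs (log2 fold change -3.25, adjusted p = 0.00260) and from 2.1 ± 0.938 to 0.336 ± 0.121 CPM in mLNs (adjusted p = 0.0120), and in DKO Foxp3- cells of spleen and pLNs from 4.32 ± 0.655 to 1.17 ± 0.233 CPM (adjusted p = 0.0483).

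Among genes of ATP release and cAMP signaling, *Gja1*, which encodes connexin 43, was higher in WT Treg cells of mLNs (3.24 ± 0.535 against 0.433 ± 0.150 CPM, adjusted p = 0.000569). *Prkar1b*, a regulatory subunit of protein kinase A, was higher in Treg cells of both genotypes and tissues at levels of at most 1.96 CPM on average. *Adcy6*, an adenylyl cyclase, was lower in Treg than in Foxp3- cells of mLNs in both genotypes, at 14.9 ± 2.22 against 48.4 ± 1.04 CPM in WT (adjusted p = 0.0113) and 10.5 ± 4.05 against 32.8 ± 18.9 CPM in DKO mice (adjusted p = 0.0130). It was also lower in WT Treg cells of spleen and pLNs (log2 fold change -1.55, adjusted p = 0.0162).

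The genes whose centred log2 CPM profiles were most like each member were found over the 12 mLN libraries, among 8983 other genes, by the root mean square (RMS) difference. For *Entpd1*, whose own profile had an RMS of 1.71, the nearest was the co-receptor gene *Nrp1* at 0.41. Over the 8 spleen and pLN libraries their difference was 0.24. Nrp1 has been reported as a marker of thymus-derived Treg cells, a use that the study calls controversial. *Nrp1* was at 332 ± 20.7 CPM in WT Treg, 104 ± 9.87 in DKO Treg, 46.4 ± 17.9 in DKO Foxp3- and 24.5 ± 1.51 CPM in WT Foxp3- cells of mLNs. Next came *Cd79b* (0.50), a B cell receptor component, and *D630039A03Rik* (0.51). *Cd79b* was at 30.2 ± 3.94 CPM in WT Treg, 9.62 ± 5.91 in DKO Treg, 5.02 ± 4.86 in DKO Foxp3- and 1.89 ± 0.0119 CPM in WT Foxp3- cells.

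For *Nt5e*, with an RMS of 1.05, the nearest were *Maf*, a transcription factor of follicular helper and IL-10-producing T cells (0.20), *Kif13a* (0.23) and *Serpina3g* (0.24). *Maf* had the same high DKO Foxp3- libraries, at 266 CPM in replicate 2 of mLNs and 270.1 CPM in replicate 1 of spleen and pLNs. For *P2rx7*, with an RMS of 0.72, they were *Pou2f2* (0.22), *Tmem64* (0.25) and *Adamts6* (0.25). The profiles of *Adora2a*, *Ada* and *P2rx4* were flatter, with RMS values of 0.45, 0.37 and 0.29, and their nearest genes were *Oaz2*, *Alad* and *Mapkapk2*, then *Txndc16*, *Stradb* and *1500012F01Rik*, and *Arl13b*, *Sqrdl* and *Rfx5*, at differences of 0.12 to 0.16. Over spleen and pLNs the differences of these 18 pairs were between 0.15 and 1, leaving out *Oaz2*, which was not tested there. By rank of Pearson correlation over the same mLN libraries these genes stood between 1 and 22.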

How the data were processed

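RNA was sequenced from sorted CD4+YFP+ Treg cells and CD4+YFP- (Foxp3-) cells with a stranded mRNA library kit. According to the submitters' processing notes and the study's methods, reads were demultiplexed with bcl2fastq 2.20.0.442, aligned to mm9 with TopHat2 2.1.1 and counted per gene with featureCounts of Subread 1.4.3-p1. The authors deposited raw counts, summed over all exons of a gene, in 1 table for spleen and pLNs and another for mLNs. The authors also deposited TPM, which divide counts by transcript length and depth; these are not centred between groups.

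Each table was normalized (TMM) and fitted separately, with all 4 groups of a tissue in one model of edgeR 4.0.16 (quasi-likelihood test; R 4.3.3, limma 3.58.1, Python 3.11.15). Tests covered the genes with a total count of at least 1, which left 16357 genes of spleen and pLNs and 16784 of mLNs, and p-values were adjusted over all genes tested by the Benjamini-Hochberg method. A call needed an adjusted p of at most 0.05 and, except for interactions, a fold of at least 1.5. A prior count of 2 was used for log2 CPM and a pseudocount of 1 for log2 TPM. The biological coefficient of variation was 21.6% in spleen and pLNs and 17.7% in mLNs. Counts per library, given in the report, limit low genes most, and the floor of 3 counts covers counting error only. Standard errors come from the quasi-likelihood fit and include its estimate of the spread between libraries. The labels give replicate numbers but no animal for a library, so p-values measure the spread between these libraries.

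Same-numbered Treg and Foxp3- libraries of one genotype deviated together in mLNs (correlations of deviations from group means 0.171, 0.174 and 0.183 in WT and 0.110, 0.372 and 0.390 in DKO). In spleen and pLNs, where the study's text takes both DKO cell types from the same 2 littermates without giving their numbers, the correlations were 0.213 in WT and 0.336 in DKO. The main fits held the group only, without pairing. A replicate block within genotype, which treats both tissues as paired, was an alternative added after the data were seen. Other alternatives were DESeq2 1.42.0, its size factors in edgeR, another low-count filter, a robust prior, limma on log2 TPM, fits of 2 groups, a block over all groups and leaving out each library. The 6 genes were named by symbol, and up to 3 other pathway genes per comparison were those called with the largest change where the higher group reached a mean of 1 CPM. *Art2b*, *Art2a-ps*, *Slc17a9* and *Xkr8*, and the DKO against WT values of *Enpp1*, *Entpd4* and *Gja1* in mLN Treg cells, were singled out after their values were seen. Profiles were compared as log2 CPM centred per gene, among genes of at least 10 CPM in an mLN group. The genes and lists were chosen with earlier results of these data known. The edgeR code was tested on simulated data with known changes. Samples shared by comparisons make their values dependent.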

Additional observations from a re-analysis of the deposited data

How the results depend on the processing

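In mLNs *Entpd1* in DKO against WT Treg cells, and *Entpd1*, *Nt5e* and *P2rx7* in WT Treg against Foxp3- cells, kept direction and call under every alternative computed. Of the 6 genes, the number called in spleen and pLNs moved as follows. Where a library was left out there, its group kept 1 library and the spread came from the other groups, so such counts are a description only. For DKO against WT Treg cells it went from 0 to 1 with edgeR or DESeq2 on 2 groups and without DKO replicate 1 in both cell types, and was 0 to 1 with single libraries left out. For DKO against WT Foxp3- cells it was 0 to 3 with single libraries left out. For WT Treg against Foxp3- cells it went from 3 to 0 with filterByExpr or limma on TPM, to 2 with DESeq2's size factors (*Adora2a* lost) or the replicate block over all groups (*P2rx7* lost), to 1 with a robust prior or the replicate block within genotype, and to 4 by DESeq2 on 4 or 2 groups, edgeR on 2 groups or without DKO replicate 1 in both cell types (0 to 4 with libraries left out). For DKO Treg against Foxp3- cells it went from 1 to 2 by DESeq2 on 4 groups, to 3 without DKO replicate 1 in both cell types, and to 0 with filterByExpr, either replicate block, limma on TPM or edgeR on 2 groups (0 to 2 with libraries left out). For the interaction it went from 0 to 1 without DKO replicate 1 in both cell types (0 to 1 with libraries left out). Beside *P2rx7* and *Adora2a*, given in the report, the replicate block within genotype changed no member's call in spleen and pLNs.

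In mLNs the number for DKO against WT Treg cells went from 1 to 2 by DESeq2 on 4 or 2 groups, edgeR on 2 groups, the replicate block over all groups or without DKO replicate 2 in both cell types (1 to 2 with libraries left out). For Foxp3- cells it went from 1 to 0 with a robust prior, that replicate block, limma on TPM or edgeR on 2 groups (0 to 2 with libraries left out). For DKO Treg against Foxp3- cells it went from 2 to 0 with a robust prior or either tool on 2 groups, to 4 with that block or without DKO replicate 2 in both cell types, and to 5 with limma on TPM (0 to 4 with libraries left out). For WT Treg against Foxp3- cells *Adora2a* was gained, 3 to 4, with either block, either tool on 2 groups or without DKO replicate 2 in both cell types (3 to 4 with libraries left out). For the interaction it went from 0 to 1 by DESeq2 on 4 groups or without DKO replicate 2 in both cell types (0 to 2 with libraries left out). The replicate block within genotype changed no call in mLNs beyond those of *Nt5e* and *Adora2a* given in the report. The causes were not tested.

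Among genes called under some setting, 3 values changed sign, all in spleen and pLNs. *Entpd1* in DKO against WT Foxp3- cells lay between -1.28 and 0.042 with single libraries left out and at 0.047 without DKO replicate 1 in both cell types. *Nt5e* in DKO Treg against Foxp3- cells lay between -0.54 and 1.005 with libraries left out, and the *Entpd1* interaction between -0.93 and 0.39. The 32 values never called changed sign in 56 of 628 alternatives, and the 17 values that did so were at most 0.28 in size as reported. Counts over all genes moved further, in mLN DKO against WT Foxp3- cells from 575 to between 2 and 929 with every library kept and between 57 and 1453 with one left out. The same ranges were 1859 to 3249 and 1325 to 2662 against 2001 for Treg cells, 906 to 2956 and 1520 to 2934 against 1885 for DKO Treg against Foxp3- cells, 1381 to 2544 and 1149 to 2148 against 1687 for WT, and 40 to 409 and 9 to 462 against 47 for the interaction. For spleen and pLNs they were, in the same order, 0 to 376 and 1 to 2751 against 134, 24 to 1256 and 4 to 2028 against 285, 190 to 718 and 185 to 1586 against 617, 188 to 2060 and 144 to 1407 against 654, and 0 to 11 and 0 to 674 against 1. Without DKO replicate 2 in both cell types the mLN counts were, in that order, 581, 2310, 2675, 2244 and 538, and without DKO replicate 1 in both those of spleen and pLNs were 411, 1283, 2091, 2043 and 412. With 2 or 3 libraries a group, differences within the spread between libraries were not detectable.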
